A study of Mus musculus with 23 samples.

Results

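The reciprocal crosses of the E6.5 mouse epiblast were compared in their DNA methylation. The comparison covered the autosomal windows, on chromosomes 1 to 19, that had a methylation value in all 6 wild-type epiblast libraries, which were 277178 of the 320494 autosomal windows in the E6.5 table. Both groups were wild-type hybrids of C57BL6/Babr (B6) and CAST/Ei (CAST) from natural matings, and the maternal strain is written first, so that CAST/B6 embryos had a CAST mother and a B6 father and B6/CAST embryos the opposite parents. There were 3 libraries for each cross, and each library came from a pool of 4 dissected epiblasts, of which 10% of the MNase-digested chromatin was taken for bisulphite sequencing. Crosses of this kind separate an effect of the parent of origin from one of the strain on each allele, but the strain of the mother and the pools that carry it cannot be told apart in total methylation. Each E6.5 library was a separate pool, and nothing in the labels gives the litters. The same windows were then looked up in 4 wild-type epiblast libraries at E7.5, 2 for each cross, each from a single embryo. For those libraries the bisulphite conversion was repeated because the initial conversion was poor. The values are percent methylation for windows of 100 CpG positions, as deposited, without any number of reads behind them.

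In the implanting mouse embryo the genome of the epiblast goes from a low to a high methylation level through the de novo methyltransferases Dnmt3a and Dnmt3b, while most CpG islands at promoters stay unmethylated. The extra-embryonic ectoderm (ExE), which gives rise to the placenta, keeps a lower level over the CpG-poor genome and gains methylation at many developmental CpG islands that stay free of it in the epiblast. Windows under 1 kb held a median of 51 CpG dinucleotides of the reference sequence and those of 14 kb or more 75, so that the length of a window is mainly a measure of CpG density: short windows are CpG-dense, and long ones lie in CpG-poor DNA. The median window was 5990 bp long and held 59 CpGs.

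The depth behind a single value is unknown, and the number of windows without a value is the only trace of it in the table. It was between 1071 and 10901 in 5 of the libraries and 32567 in B6/CAST replicate 3. The third B6/CAST library, called unnumbered here, has a heading whose number matches no replicate number in the labels. The tissue was checked on 3 markers. The shortest window holding an annotated start of Elf5, a trophoblast transcription factor, was methylated between 42.5% and 80.4% in the 6 epiblast libraries against 10.7% to 50% in the 4 E6.5 ExE libraries, with B6/CAST epiblast replicate 3 and CAST/B6 ExE replicate 1 overlapping. That of Pou5f1, the pluripotency factor Oct4, was between 1.79% and 10% against 15.9% to 77.8%, without overlap. The window at Nanog did not separate the tissues, at 16.7% to 69.4% in epiblast and 58.0% to 81.2% in ExE. B6/CAST replicates 1 and 3 stood apart from the other epiblast libraries. Across windows their mean Pearson correlations with the CAST/B6 epiblast libraries were 0.8001 and 0.792, against 0.864 to 0.883 for the other 4. With the B6/CAST ExE libraries the correlation was 0.767 for replicate 1, against 0.623 to 0.664 for the other 5, and many of the values below are therefore also given without replicate 1.

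The sequences below show the contrast between CpG-poor and CpG-dense DNA on which the comparison turned. All are from the RefSeq GRCm38.p6 assembly, in lower case with each CpG in capitals. The first is 300 bases at the centre of a 20871 bp window inside Foxp2, a transcription factor of the developing brain, in an intron at chr6:15088554-15088853 on the plus strand, of which 91 bases are soft-masked as repeat. It is shown because it lies in a region with one of the largest differences, and the window around it had 80%, 72.2% and 100% methylation in CAST/B6 against 60.7%, 69.0% and 64% in B6/CAST. The other 3 run from 250 bases before to 50 after an annotated start. The germline gene Dazl, at chr17:50293571-50293870 on the minus strand, is shown as a CpG-dense promoter that was methylated. The transcription factor gene Tfap2a, at chr13:40733746-40734045 on the minus strand, is shown as an unmethylated promoter next to the region that differed in the opposite direction. Elf5, at chr2:103423818-103424117 on the plus strand, is the tissue marker. Of its 300 bases, 267 lie in the window before the one used as the marker, with 98.1%, 89.5% and 83.6% in CAST/B6 and 79.2%, 83.8% and 76.4% in B6/CAST.
Foxp2 intron: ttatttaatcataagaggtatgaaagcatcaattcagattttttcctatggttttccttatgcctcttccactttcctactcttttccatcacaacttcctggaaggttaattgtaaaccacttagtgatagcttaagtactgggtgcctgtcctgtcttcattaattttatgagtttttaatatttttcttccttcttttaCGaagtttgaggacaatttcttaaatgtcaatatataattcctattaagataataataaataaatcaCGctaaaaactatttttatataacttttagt
Dazl promoter: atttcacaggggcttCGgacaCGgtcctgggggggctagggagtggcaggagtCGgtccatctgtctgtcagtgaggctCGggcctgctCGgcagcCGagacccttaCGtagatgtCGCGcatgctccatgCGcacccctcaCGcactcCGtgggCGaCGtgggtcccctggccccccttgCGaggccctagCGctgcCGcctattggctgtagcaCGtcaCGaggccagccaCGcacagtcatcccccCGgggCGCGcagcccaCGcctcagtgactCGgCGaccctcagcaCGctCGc
Tfap2a promoter: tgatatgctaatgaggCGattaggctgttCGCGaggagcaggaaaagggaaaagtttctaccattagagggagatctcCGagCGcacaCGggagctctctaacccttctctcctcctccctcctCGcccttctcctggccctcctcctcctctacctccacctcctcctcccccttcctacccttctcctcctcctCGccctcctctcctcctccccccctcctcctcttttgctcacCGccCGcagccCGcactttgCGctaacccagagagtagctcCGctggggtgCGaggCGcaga
Elf5 promoter: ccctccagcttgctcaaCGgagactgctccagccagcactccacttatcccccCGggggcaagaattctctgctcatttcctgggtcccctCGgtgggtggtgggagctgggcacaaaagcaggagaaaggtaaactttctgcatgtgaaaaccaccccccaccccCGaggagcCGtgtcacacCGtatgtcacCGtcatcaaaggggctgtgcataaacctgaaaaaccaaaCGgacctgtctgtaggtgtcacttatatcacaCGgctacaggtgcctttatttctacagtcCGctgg
The letters CG, which read the same on both strands, occurred 2 times in the Foxp2 stretch, 28 times at Dazl, 15 times at Tfap2a and 10 times at Elf5. Of 32851 RefSeq promoters of this length, 85.9% held at least 2, 14.2% at least 28, 34.6% at least 15 and 43.5% at least 10.

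Methylation was higher in CAST/B6 over most of the genome. The CAST/B6 libraries had mean levels of 78.6%, 78.1% and 79.2%, and the B6/CAST libraries 64.9% for replicate 1, 70.5% for replicate 3 and 74.3% for the unnumbered library. The groups did not overlap, and the B6/CAST libraries differed from each other far more than the CAST/B6 libraries. The mean difference was 8.77 percentage points, between 78.7% ± 0.556 and 69.9% ± 4.71 (SD, n = 3 each). By exact permutation, two-sided, p was 0.1, and 3 libraries against 3 cannot go lower. Without B6/CAST replicate 1 the difference was 6.28 points, and without replicate 3 it was 9.07 points. The middle of the distribution moved as a whole: the difference lay between 3.12 and 13.96 points from the lower to the upper quartile of the windows, and 86.9% of the windows were higher in CAST/B6. The share of windows at 80% or more was 66.5% to 71.6% in CAST/B6 and 23.6% to 52.3% in B6/CAST. The share under 20% was close in both crosses, at 5.61% to 6.02% in CAST/B6 and 5.99% to 6.29% in B6/CAST.

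All 3 CAST/B6 libraries lay above all 3 B6/CAST libraries in 67286 windows, or 24.3% of the windows, and below all of them in 1636 windows, or 0.590%. No single window passed an adjusted p of 0.05 with limma and Benjamini-Hochberg adjustment (lowest adjusted p = 0.192), also not under the other settings that kept single windows. In simulated data this test of single windows recovered none of the windows changed by 30 points, so that the count of 0 does not show that no window differed. At an unadjusted limma p under 0.05, 52203 windows, 18.8%, were higher in CAST/B6 and 480 windows, 0.173%, were lower. When 5 neighbouring windows were averaged into a region, 9428 of 55444 regions, 17.0%, passed with limma, 9427 of them higher in CAST/B6 and 1 lower. These calls rested on the libraries: 0 regions passed when CAST/B6 replicate 1, 2 or 3 or B6/CAST replicate 3 was left out, 1157 without B6/CAST replicate 1 and 29961 without the unnumbered library. When each library's mean was subtracted, 0 regions passed and 7372 of 55444 had an unadjusted limma p under 0.05, so no region was called beyond the shift of the whole genome. The shift was not uniform, as given by window length below.

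The difference was largest in the long, CpG-poor windows and smallest in the short windows, which were almost unmethylated. In windows under 1 kb, CAST/B6 had 4.22%, 4.10% and 3.41%, and B6/CAST 3.90%, 3.74% and 3.65%. The crosses overlapped there, and the difference was 0.142 points (exact permutation test, p = 0.7). The difference was 2.45 points in windows of 1 to 2 kb, 6.05 in 2 to 4 kb, 8.30 in 4 to 8 kb, 11.3 in 8 to 14 kb and 14.6 in windows of 14 kb or more. In that longest class CAST/B6 had 81.1%, 81.3% and 84.3%, while B6/CAST had 59.2% for replicate 1, 68.1% for replicate 3 and 75.5% for the unnumbered library. Here the crosses did not overlap, and the spread within B6/CAST, 8.14 points SD, was also the largest of the 6 classes. Within each library the longest windows exceeded the shortest by 78.3 ± 2.24 points in CAST/B6 and by 63.9 ± 8.26 in B6/CAST (SD, n = 3 each; exact permutation test of the difference of 14.5 points, p = 0.1). Without B6/CAST replicate 1 that difference was 10.2 points, with 0.210 points in the shortest and 10.4 in the longest class. Relative to the mean of each library the order of the classes is the same, but the windows under 1 kb are then 8.63 points lower and those of 14 kb or more 5.87 points higher in CAST/B6.

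**Figure D1:**
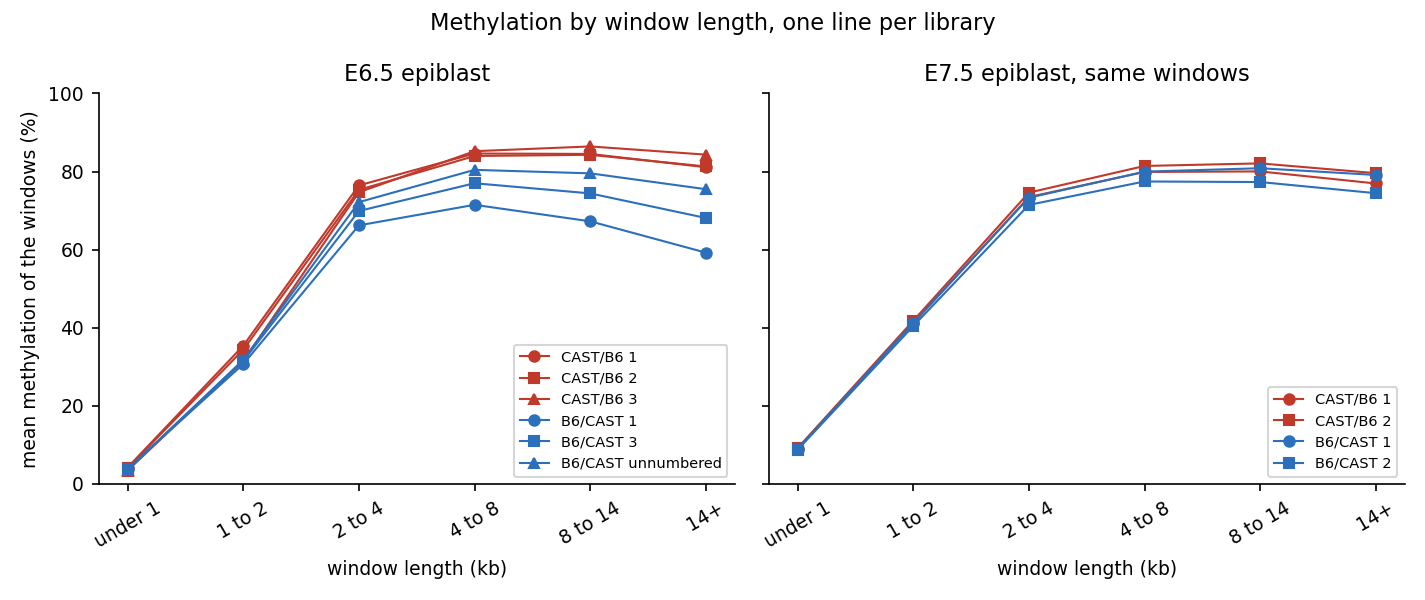
Mean methylation in percent (vertical axis) of the windows in 6 classes of length in kb (horizontal axis), 1 line for each library, at E6.5 (left) and in the same windows at E7.5 (right). At E6.5 the CAST/B6 lines (red) stay together between 81.1% and 84.3% in the longest windows while the B6/CAST lines (blue) fall to 59.2% to 75.5%, and all lines meet near 4% in the shortest.

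The level of methylation sorted the windows in part in the same way. Windows with a mean under 20% over the 6 libraries differed by 0.169 points, those of 20 to 40% by 4.66, those of 40 to 60% by 7.03, those of 60 to 80% by 12.4 and those of 80% or more by 7.45. The mean over the 6 libraries contains the difference itself, and with the level taken from the E7.5 libraries the values were -0.420, 2.80, 6.12, 10.97 and 8.53 points in the same order, so that the lowest class changed sign and the 2 highest were closer. Among windows of 80% or more at E7.5 the difference was 7.47 points in the 75 windows under 1 kb, 4.82 in 1 to 2 kb, 6.25 in 2 to 4 kb, 8.03 in 4 to 8 kb, 10.4 in 8 to 14 kb and 13.5 in 14 kb or more, so that at this level it increased with length only from 1 kb upwards. Windows without a gene differed by 10.8 points, windows in a gene but without an annotated start by 8.01, and windows with a start by 7.26. Among windows of 4 to 8 kb alone these values were 9.33, 7.83 and 7.78, so that the contrast of windows without a gene and those with a start was 3.52 points over all windows and 1.55 points at this length. It was 2.26 points over all windows without B6/CAST replicate 1. By the share of soft-masked repeat in the window the difference over all windows was 6.66 points under 20% repeat, 11.5 at 60 to 80% and 9.82 at 80% or more. Among windows of 4 to 8 kb alone these values were 8.09, 9.25 and 9.21 points.

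No chromosome or larger segment was without the difference. It lay between 7.91 points on chromosome 19 and 9.79 points on chromosome 3, or 5.65 and 6.91 points on these chromosomes without B6/CAST replicate 1. Of 2158 bins of 1 Mb with at least 50 windows, 2158 were higher in CAST/B6 on average, and in 2155 all 3 CAST/B6 libraries lay above all 3 B6/CAST libraries. The bins lay between 2.49 and 14.7 points without B6/CAST replicate 1. The 5 bins with the largest difference, 17.2 to 17.8 points, held at most 2 protein-coding genes each: Sgcz, a sarcoglycan, on chromosome 8, Nkain2, a partner of the sodium pump, on chromosome 10, Epha5, an ephrin receptor, on chromosome 5, Izumo3 with Gm12666 on chromosome 4, and no protein-coding gene at all on chromosome 17. In the Sgcz bin, chr8:38000001-39000000, CAST/B6 had 80.9%, 79.99% and 84.4%, against 55.3%, 63.6% and 72.9% in B6/CAST. The bin with the smallest difference, 4.07 points, was chr6:52000001-53000000, which holds the Hoxa cluster and Evx1. The other 4 bins of small difference, 4.47 to 4.62 points, held between 14 and 55 protein-coding genes each. Across bins the difference followed the median window length with a Pearson correlation of 0.884 over 2158 bins of the same 6 libraries.

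**Figure D2:**
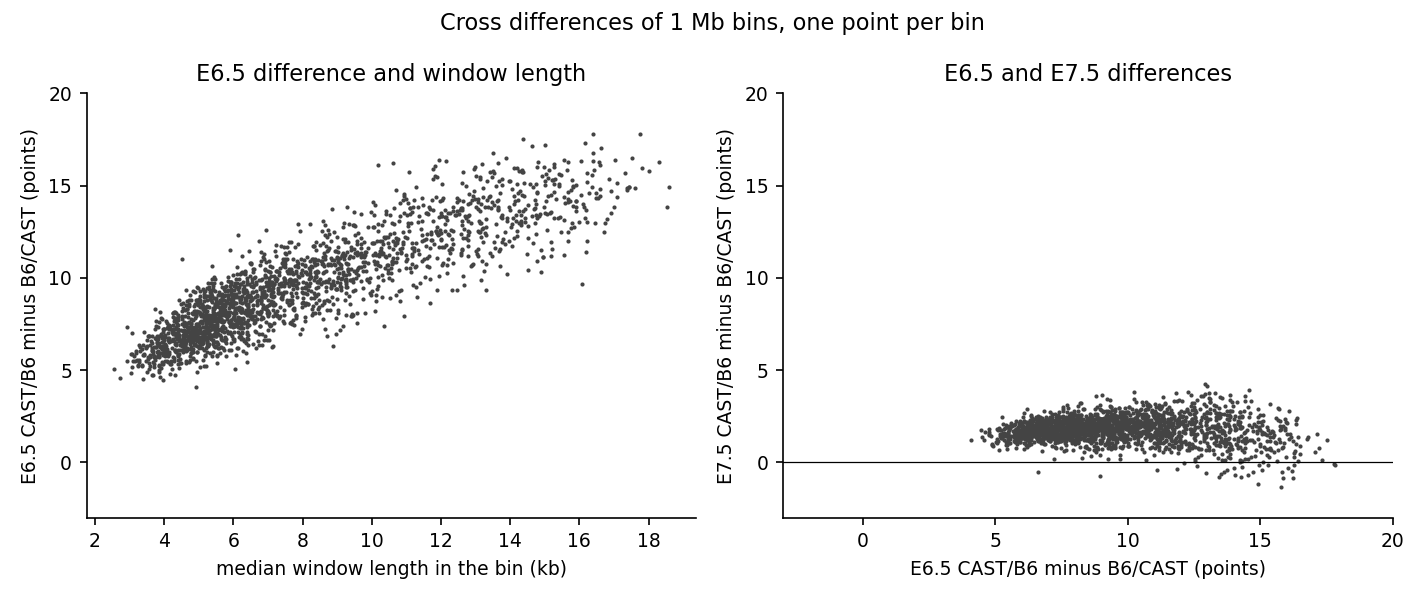
Each point is 1 of 2158 bins of 1 Mb. Left, the E6.5 difference CAST/B6 minus B6/CAST in percentage points against the median window length in kb. Right, the E7.5 difference against the E6.5 difference. Every bin lies between 4.07 and 17.8 points at E6.5 and between -1.35 and 4.28 points at E7.5.

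The regions with the largest differences among those that passed were chosen by size among those in which the crosses did not overlap, with those within 50 kb of a larger one left out. The selection had been laid out for single windows and was moved to regions once no window had passed. The 9 reported here were 81171 to 138776 bp wide, held 354 to 440 CpGs each and differed by 26.3 to 28.0 points, each with an adjusted p of 0.0364 with limma. All 9 failed the test when any CAST/B6 library or B6/CAST replicate 3 was left out. Without B6/CAST replicate 1 they differed by 18.1 to 29.5 points, each with an adjusted p of 0.0490 with limma, and the lowest values were those of the regions in Trdn and Foxp2, 18.1 and 19.3 points. Of these, 3 overlapped protein-coding genes. Exons covered 94 bases of the region in Foxp2, 514 of that in Galnt13 and 2275 of that in Trdn, where the processed pseudogenes Gm29884 and Gm47844 are counted as well. The region chr6:15040880-15133191 lay in Foxp2. It had 87.9%, 83.5% and 84.6% in CAST/B6, and 42.2%, 59.7% and 72.4% in B6/CAST, where the 3 libraries lay far apart. Trdn, which encodes triadin of the muscle calcium release complex, held the region chr10:33336260-33445363, with 79.1%, 84.2% and 84.1% in CAST/B6 and 37.4%, 61.1% and 67.7% in B6/CAST. Galnt13, a glycosyltransferase, held chr2:54364926-54448756, with 83.6%, 78.6% and 81.0% against 50.4%, 44.8% and 67.3%. The other 6 held only pseudogenes or an experimentally untested model (Gm38281, Gm21006, Gm17997, and Gm4802 with Gm6931) or no gene, and their nearest protein-coding starts, of Trhde, Epha5, Cdh8, Ift57, Pdha2 and Sis, lay 57221 to 1149407 bp away. The region at Gm38281, chr10:114270934-114367878, had the largest value, 28.0 ± 5.01 points (SE), from 88.6%, 85.4% and 93.0% against 52.5%, 57.1% and 73.5%.

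**Figure D3:**
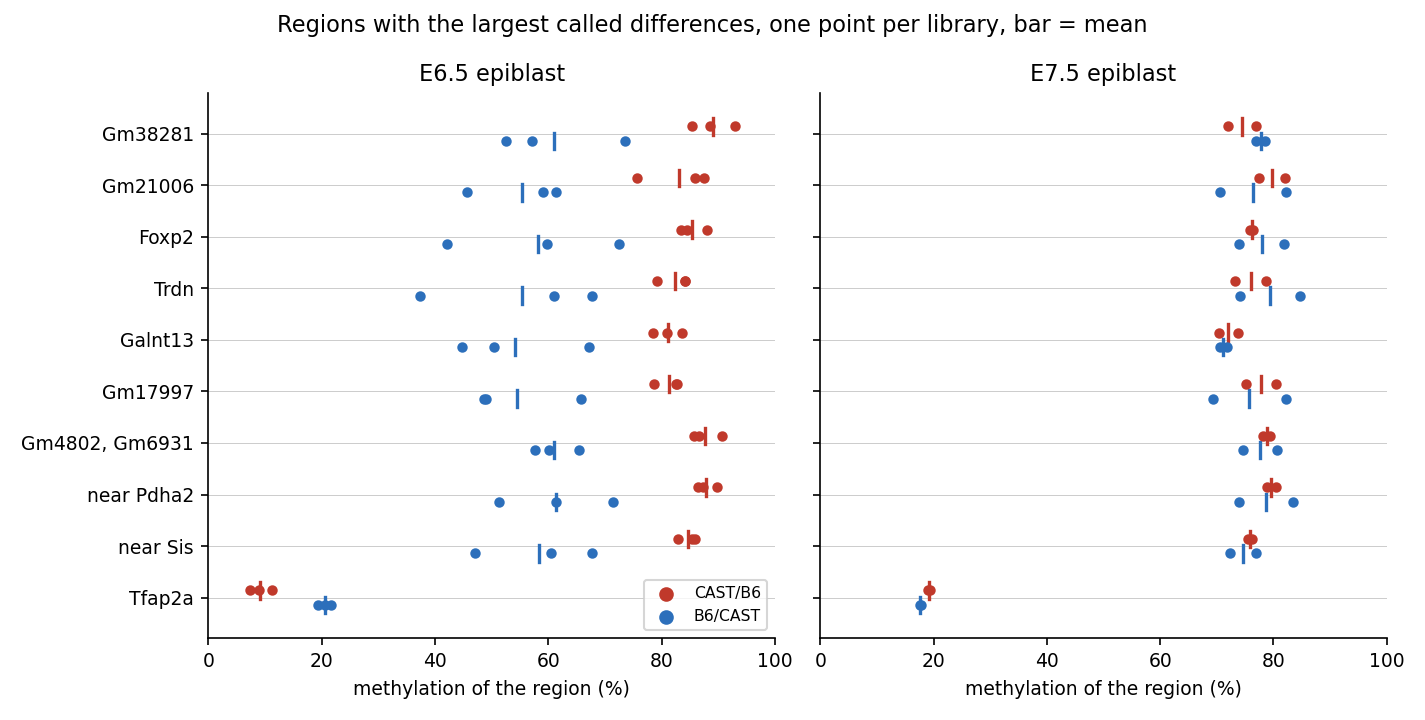
Methylation in percent (horizontal axis) of 9 of the 10 regions with the largest called differences higher in CAST/B6 and of the 1 region called lower, at Tfap2a, with 1 point for each library and a bar at the mean, at E6.5 (left) and E7.5 (right). The crosses do not overlap at E6.5 by the selection, and at E7.5 the points of both crosses lie at 69.3% to 84.6% in the upper 9 lines.

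The protein-coding genes with the most called regions were over 1000 kb long. Among 439 protein-coding genes with at least 10 regions, the median share of called regions was 10.0% and 139 genes had none, set beside 17.0% over all regions. Lsamp, a neuronal adhesion protein with a gene of 2197 kb, had 17 of 31 regions called. Its mean was 78.7%, 80.6% and 85.7% in CAST/B6 and 58.9%, 66.1% and 74.4% in B6/CAST. Csmd1, a membrane protein with complement control domains, had 16 of 20 called, with a mean difference of 15.6 points. Macrod2, an ADP-ribosyl hydrolase, had 13 of 22, and Cdh13, T-cadherin, 13 of 35. Nrxn3, a presynaptic adhesion protein, had 12 of 19. Cntnap2, a neuronal adhesion protein, had 11 of 20, the receptor Lrp1b 11 of 20, the synaptic scaffold Dlg2 11 of 23 and the teneurin Tenm2 11 of 30. The gene model Gm20388, of 4435 kb, is the exception among these 10, with 15 of 235 called. For the 9 other genes the mean difference lay between 10.7 points in Cdh13 and 16.1 points in Cntnap2, and between 7.32 and 12.2 points without B6/CAST replicate 1. At E7.5 the same 9 gene bodies differed by 1.02 to 3.22 points.

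The windows in which the crosses separated with CAST/B6 lowest were few, and they were shorter and less methylated than all windows. These 1636 windows had a median length of 2694 bp and a median level of 30.9%, and 37.4% of them held an annotated start, against 5990 bp, 80.3% and 21.3% for all windows. The 1 region called lower in CAST/B6 lay at chr13:40709261-40724913 over Tfap2a, the transcription factor AP-2 alpha of surface ectoderm and neural crest, with 4351 of its 15653 bases in exons of that gene and of the antisense model Gm47061. It had 11.3%, 8.89% and 7.38% in CAST/B6 and 21.7%, 19.3% and 20.6% in B6/CAST, a difference of -11.3 ± 3.45 points (SE; limma adjusted p = 0.0445). The call was lost without CAST/B6 replicate 1, 2 or 3 and without B6/CAST replicate 1 or 3, and kept without the unnumbered library. It was also lost in a fit with the replicate number as a block, over the shared numbers 1 and 3 (limma adjusted p = 0.0523). Without B6/CAST replicate 1 the difference was -10.8 points (limma adjusted p = 0.0648). The 5 windows of the region differed by -18.1 to -1.36 points, while the promoter window whose sequence is shown above was at 0% to 1.28% in all 6 libraries. At E7.5 the region was 15.6 points higher in ExE than in the epiblast, and the part of ExE in its E6.5 difference was not tested.

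The Hox clusters, the homeobox genes that pattern the body axis, also lay on this side. They had 143 windows, with a median difference of -1.88 points. All CAST/B6 libraries were lowest in 11 of these windows and highest in 1. The share lowest was 0.590% over the genome but 3.19% among all windows of 1 to 2 kb, the class that holds the median Hox window of 1584 bp, and 4.04% among those under 1 kb. With limma 2 had an unadjusted p under 0.05 and were lower, against 0.173% over the genome. Over the 143 windows the mean was 7.46%, 7.56% and 6.62% in CAST/B6, and 10.8%, 9.62% and 7.54% in B6/CAST, so that the unnumbered library lay among the CAST/B6 values. The exact permutation test gave p = 0.2, and the mean difference of -2.12 points was -1.37 without B6/CAST replicate 1. By cluster the mean difference was -3.001 points at Hoxa, -2.72 at Hoxb, -0.798 at Hoxc and -1.69 at Hoxd. The window of lowest value was chr6:52168654-52169899 at Hoxa3, with 0%, 1.09% and 2.33% in CAST/B6 and 24.4%, 13.2% and 5.56% in B6/CAST. The next, at Hoxa7, was 13.1 points lower in CAST/B6 but overlapped, since CAST/B6 replicate 3 had 28.9%. The highest were 9.99 points at Hoxc5 and 9.06 at Hoxb3, both with overlap. At E7.5 the Hox windows were on average 11.3 points higher in ExE than in the epiblast, and the E7.5 difference between the crosses was 0.252 points.

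Gene families in CpG-poor clusters lay on the opposite side. The olfactory receptor genes, the odorant receptors of the nose, had 1146 windows of a median 14482 bp. Their median difference was 13.2 points, all CAST/B6 libraries were highest in 377 windows, 32.9% against 24.3% over all windows and 34.1% over windows of 14 kb or more, and 378 had an unadjusted limma p under 0.05 and were higher, against 0 lower, where over all windows 18.8% were higher and 0.173% lower. Their mean was 81.0%, 80.9% and 83.6% in CAST/B6 and 60.5%, 68.2% and 75.4% in B6/CAST. The vomeronasal receptor genes, which detect pheromones, had a median of 14.1 points over 454 windows, and 140 of them, 30.8%, did not overlap in this direction. The prolactin family, hormones of the pituitary and placenta, had a median of 14.7 points over 29 windows, with 10 of them not overlapping. The median window was 15253 bp long in the vomeronasal receptor genes and 20007 bp in the prolactin family. All windows of 14 kb or more had a median difference of 14.5 points, so that the families were close to windows of their length. Without B6/CAST replicate 1 the mean difference went from 13.8 to 10.1 points for the olfactory receptor genes, from 14.1 to 10.1 for the vomeronasal receptor genes and from 14.05 to 10.8 for the prolactin family. Subtracting the library means takes 8.77 points off every window, so that any median under 8.77 points turns negative on that scale by construction. The medians of these 3 families are then 4.43, 5.29 and 5.89 points. The window with the largest value in these families was in Olfr470, with 89.3%, 89.8% and 66% against 21.9%, 42.5% and 57.0%, and the lowest in Olfr1410, at -12.1 points with overlap. The clustered protocadherin genes, neuronal adhesion proteins, had a median of 6.27 points over 147 windows, of a median 2940 bp, shorter than the 5990 bp of all windows. Their crosses overlapped, at 44.4%, 41.5% and 35.6% against 32.1%, 35.2% and 36.3% (exact permutation test, p = 0.2), 11.6% of their windows separated with CAST/B6 highest, and at E7.5 their mean difference was -1.46 points. The zinc finger genes named Zfp had a median of 6.08 points over 2180 windows. Relative to the library means the medians of these 2 families are -2.50 and -2.69 points. Their mean differences went from 5.95 to 4.74 and from 6.49 to 4.87 points without B6/CAST replicate 1. The Zfp windows ranged from -25.3 points at Zfp26 to 41.0 points at Zfp746.

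**Figure D4:**
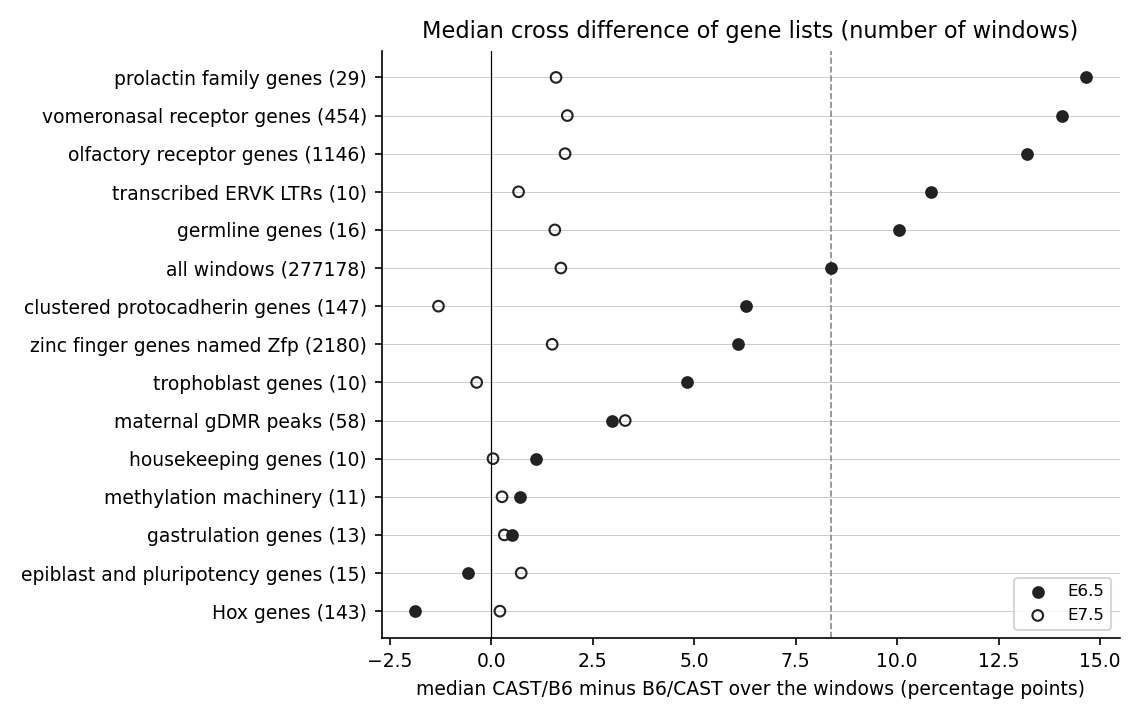
Median difference CAST/B6 minus B6/CAST in percentage points (horizontal axis) over the windows of each gene list, with the number of windows in brackets, at E6.5 (filled) and E7.5 (open). The dashed line is the E6.5 median of all windows, 8.36 points. The lists range from -1.88 points (Hox genes) to 14.7 points (prolactin family) at E6.5.

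Promoters were read from the shortest window that holds an annotated start. At housekeeping genes 9 of 10 measured windows were higher in CAST/B6, beside 86.9% of all windows, but by 6.43 points at most, at the TATA-binding protein gene Tbp, where the crosses overlapped, and their median was 1.10 points. The genes of the methylation machinery had a median of 0.705 points over 11 windows. The maintenance enzyme gene Dnmt1 was at 0% to 3.57% and the de novo enzyme gene Dnmt3b at 0% to 2.78% in the 6 libraries. The largest values, at the dioxygenase genes Tet2 and Tet1, were 11.8 and 10.8 points with overlapping crosses. The gastrulation genes had a median of 0.496 points over 13 windows and ranged from -14.3 points at the mesoderm factor Mesp1 to 9.07 points at the Nodal inhibitor Cer1, both with overlap. These 3 medians, all under 8.77 points, are below 0 relative to the library means. The windows were short, with median lengths of 959 bp in the housekeeping, 1255 bp in the methylation machinery and 764 bp in the gastrulation genes. Over all windows under 1 kb the median difference was -0.00553 points, and over those of 1 to 2 kb 1.74 points.

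The epiblast and pluripotency genes had a median of -0.578 points over 15 of 18 windows. Of the 15, 7 were higher and 8 lower in CAST/B6, where 86.9% of all windows were higher. The 15 windows had a median length of 1501 bp. Over all windows of 1 to 2 kb the median difference was 1.74 points, and under 1 kb it was -0.00553 points. The marker Fgf5 had 1.19%, 0% and 0% against 10.3%, 0% and 1.89%, so that its difference of -3.67 points came mainly from B6/CAST replicate 1, with overlap. The lowest value was -5.47 points at Otx2, with 0%, 3.57% and 0% against 4.32%, 10.5% and 5.13%, which do not overlap. Of the 15 windows, 2 had an unadjusted limma p under 0.05, both higher in CAST/B6, beside 18.8% of all windows. Zfp42, known as the naive pluripotency marker Rex1, had 97.4%, 69.4% and 50.6% against 22.9%, 51.2% and 47.2%, which overlap. Dppa4, a marker of pluripotent cells, had 87.5%, 87.8% and 71.4% against 71.2%, 54.5% and 65.1%, which do not overlap. Thus 1 of the 15 windows separated with CAST/B6 highest, beside 24.3% of all windows, and 1 with CAST/B6 lowest, beside 0.590%. Among all windows of 1 to 2 kb these shares were 9.67% and 3.19%.

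Germline genes have CpG-dense promoters that are methylated as the embryo implants. Their 16 windows, from 682 bp at Dazl to 6791 bp at Syce1 with a median of 2858.5 bp, were not all CpG-dense. They had a median difference of 10.0 points, or 1.28 points relative to the library means. Of the 16, 12 were higher in CAST/B6, beside 86.9% of all windows. Over the 16 windows the mean was 69.8%, 73.6% and 57.0% in CAST/B6 and 56.0%, 55.98% and 61.9% in B6/CAST, and the crosses overlapped (exact permutation test of the difference of 8.85 points, p = 0.2). The largest was 21.5 points at Ddx4, an RNA helicase of germ cells, where CAST/B6 had 57.1%, 52.8% and 18.95% and B6/CAST 25.5%, 17.7% and 21.2%, with overlap. The next was 20.9 points at Brdt, a testis bromodomain protein, also with overlap. At Dazl, an RNA-binding protein of germ cells whose promoter is printed above, the window had 90.4%, 96.4% and 79.5% against 64%, 70.8% and 75%, with no overlap (limma unadjusted p = 0.0142, adjusted p = 0.208). It was one of 2 windows of this list in which the crosses separated, or 12.5%, beside 24.3% of all windows and 18.3% of those of 2 to 4 kb. The lowest value was -4.19 points at Tex101, with 65.6%, 85.5% and 89.1% against 79.2%, 86.96% and 86.6%, where CAST/B6 replicate 1 alone lay low and the crosses overlapped. The trophoblast genes had a median of 4.81 points over 10 windows, which is -3.96 relative to the library means. Plet1, a trophoblast surface protein, had 84.3%, 80.5% and 81.8% against 56.9%, 67.8% and 67.1%, while Hand1, a factor of giant cells, had 14.3%, 14.4% and 0% against 24.97%, 26.7% and 0%, which overlap. Of the 10 windows, of a median 1490 bp, 7 were higher in CAST/B6.

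Regions that keep a parental imprint were looked up as well. The peaks of 15 maternal germline differentially methylated regions (gDMRs), taken from the study's supplementary tables, held 58 windows with a median difference of 2.98 points, which is -5.79 relative to the library means. Of the 15, 9 were higher in CAST/B6, beside 86.9% of all windows. The 58 windows were short, with a median of 1761 bp, and all windows of 1 to 2 kb had a median difference of 1.74 points. Snrpn had 69.6%, 75% and 64.96% against 44.5%, 56.9% and 35.9%, a difference of 24.1 points. Nespas followed with 8.51 points, and the lowest were -2.50 at Mest and -1.30 at H13, both with overlap. The 8 transcribed ERVK LTRs, retroviral promoters that the study chose in embryos of these crosses so that they are no independent evidence of a direction, had a median of 10.8 points over 10 windows, and 8 of 8 were higher in CAST/B6, beside 86.9% of all windows. Their mean difference was 10.7 points, or 7.30 without B6/CAST replicate 1. RLTR11B near Smoc1 had 100.0%, 85.9% and 87.4% against 62.5%, 51.8% and 87.5%. MLTR31F_Mm upstream of Slc38a4, an amino acid transporter gene imprinted in the placenta, had 95%, 98.2% and 97.7% against 62.0%, 87.5% and 80%.

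The windows were then sorted by the difference between the tissues at E7.5, from libraries that the E6.5 comparison did not use. In the 18004 windows that were at least 30 points lower in ExE at E7.5, CAST/B6 had 80.4%, 80.7% and 84.2% at E6.5, against 57.3%, 67.1% and 74.7% in B6/CAST. The E6.5 ExE of B6/CAST had 33.2% and 33.0%, and that of CAST/B6 54.3% and 51.2%, over the 15209 of them with a value in ExE. The epiblast difference was 15.4 points, or 10.9 without B6/CAST replicate 1. In 22074 windows within 5 points between the tissues it was 2.21 points. These windows were also shorter, with a median length of 2051 bp against 15439 bp for the 18004 windows. All windows of 14 kb or more differed by 14.6 points. Whether the tissue difference adds to the window length was not tested. In the 855 windows at least 15 points higher in ExE at E7.5 the direction was the opposite: CAST/B6 had 12.7%, 12.99% and 10.1%, and B6/CAST 20.1% for replicate 1, 16.8% for replicate 3 and 13% for the unnumbered library, which was level with CAST/B6 replicate 2. The 4 ExE libraries of E6.5 had 32.6% to 35.6% over the 754 of these windows with a value. The difference was -4.71 points, or -2.96 without B6/CAST replicate 1, and 75.8% of these windows were lower in CAST/B6 (exact permutation test, p = 0.1). All 3 CAST/B6 libraries were lowest in 15.8% of them, against 0.590% over all windows and 3.19% over windows of 1 to 2 kb, and their median length was 1896 bp. In the 18004 and in the 855 windows the B6/CAST libraries lay on the side of ExE, in the order replicate 1, replicate 3 and unnumbered. The part of ExE cells in the cross difference was not tested.

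At E7.5 the crosses overlapped in the same windows. Over 276865 windows with an E7.5 value in all 4 libraries, CAST/B6 had 74.97% and 76.6%, and B6/CAST 75.4% and 72.7%. The difference was 1.76 points (exact permutation test, p = 0.667), and 2 libraries against 2 cannot reach a p of 0.05. Stage and library preparation cannot be told apart here. The difference of the differences between the stages was 7.01 points (exact permutation test with the cross labels exchanged within each stage, p = 0.183). With limma 0 windows and 0 regions passed at E7.5, with 14023 windows, 5.06%, and 2743 regions, 4.95%, at an unadjusted p under 0.05. The interaction of cross and stage called 0 windows and 0 regions with limma, with 18998 windows, 6.86%, and 7277 regions, 13.1%, at an unadjusted p under 0.05. Without the unnumbered library the interaction passed in 6331 regions, all with the larger CAST/B6 excess at E6.5.

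The windows with the clearest difference at E6.5 did not stand out at E7.5. In the 67219 windows with E7.5 values where all CAST/B6 libraries had been highest at E6.5, the E7.5 libraries had 79.1% and 81.0% in CAST/B6 and 79.7% and 76.5% in B6/CAST. Both CAST/B6 libraries were highest at E7.5 in 28.0% of these windows and in 27.3% of the other windows, where the background over all windows was 27.4%. The E7.5 difference was 1.94 points in the former and 1.70 in the latter. It stayed between 1.30 and 1.92 points across classes of E6.5 difference from 0 or less to 30 points or more. Among windows the 2 differences had a Pearson correlation of 0.0363 over 276865 windows, and among the 1 Mb bins of -0.0447 over 2158 bins. These describe 10 libraries and carry no test. By length the E7.5 difference was 0.209 points under 1 kb, 0.640 in 1 to 2 kb, 1.66 in 2 to 4 kb, 1.95 in 4 to 8 kb, 1.98 in 8 to 14 kb and 1.48 in 14 kb or more. It was thus higher in each class up to 14 kb and lower in the longest, where the E6.5 value was the highest. E7.5 windows have other borders than E6.5 windows, and the values were averaged over the overlap. In the 74741 windows whose borders matched within 80% both ways the E7.5 difference was 1.76 points and the E6.5 difference 8.42 points.

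Of the 9427 regions called higher in CAST/B6 at E6.5, 614 had an unadjusted limma p under 0.05 and were higher in CAST/B6 at E7.5, and 632, 6.70%, had such a p in either direction, against 4.95% of all regions. Both CAST/B6 libraries lay above both B6/CAST libraries at E7.5 in 29.4% of the called regions, against 34.2% of all regions, so that the 2 measures went in opposite directions. Their E7.5 means were 77.7% and 79.9% in CAST/B6 and 78.8% and 74.9% in B6/CAST. In none of the 9 regions reported did both CAST/B6 libraries lie above both B6/CAST libraries at E7.5, and at Gm38281 they lay below, with 72.0% and 76.9% against 78.5% and 77.0%. The Foxp2 region had 75.9% and 76.4% against 81.9% and 74.0%. Over the 9 the E7.5 differences lay between -3.42 and 3.34 points. At Tfap2a the E7.5 values were 18.99% and 19.3% in CAST/B6 and 17.7% and 17.6% in B6/CAST, and the E6.5 CAST/B6 libraries were thus below all others of both stages.

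The E7.5 reads had also been sorted by parental allele. In 36903 windows with allelic values in all 4 libraries where CAST/B6 had been highest at E6.5, the maternal allele had 80.2% and 82.1% in CAST/B6 and 81.4% and 78.2% in B6/CAST, and the paternal allele 80.9% and 82.7% against 80.9% and 77.8%. The cross differences were 1.37 points on the maternal and 2.42 points on the paternal allele. The values over all 152684 windows with allelic values were 1.23 and 2.28 points. Within each library the alleles were closer than the libraries of B6/CAST were to each other. No allelic values were analysed at E6.5.

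The E6.5 ExE of the same crosses differed in the same direction. Over the 250886 windows with a value in those libraries as well, CAST/B6 ExE had 65.7% and 63.3% and B6/CAST ExE 52.4% and 52.4%, a difference of 12.1 points, against 8.73 points in the epiblast over these windows. The difference between the tissues was -3.33 points (exact permutation test with labels exchanged within each tissue, p = 0.7). With limma the interaction of cross and tissue called 0 windows and 0 regions, with 15804 windows, 6.30%, and 3236 regions, 5.84%, at an unadjusted p under 0.05.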

How the data were processed

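Per the labels and the submitters' processing notes, the authors trimmed PBAT reads with Trim Galore 0.4.4, aligned them with Bismark 0.20.0 to GRCm38 and deposited percent methylation for windows of 100 CpG positions, without coverage, so that no interval was computed. The deposited percentages were used unscaled. Windows with a value in all 6 E6.5 epiblast libraries were kept. E7.5 values are means of the overlapping E7.5 windows weighted by overlap, with at least 80% of the E6.5 window covered. Windows, and means of 5 neighbouring windows (regions), went into a linear model (R 4.3.3; limma 3.58.1, eBayes at its defaults) with Benjamini-Hochberg adjustment over all windows or regions and a threshold of 0.05. Library means were compared by two-sided exact permutation tests, which measure only the spread between these pools. Genes and starts are from GENCODE M21, and CpGs, repeats and promoters from RefSeq GRCm38.p6. The fits were tested on simulated data with 200 windows or regions changed by 30 points. That of regions recovered 190 at E6.5 and 200 at E7.5, and that of single windows 0 at both stages. No region differed by as much as 30 points at E6.5, where the largest value was 28.0, so recovery at the observed sizes was not tested.

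Gene families were taken by symbol, promoters as the shortest window with a start. Named are the 10 called regions of largest difference in each direction without overlap of the crosses of which 1 is not reported here, the 10 protein-coding genes with most called regions among those with at least 10, the 5 bins of 1 Mb with the largest and smallest difference, and list members at either end. The members and lists were chosen with earlier results of these data known. Dazl, Dppa4, Plet1, Fgf5, Otx2, Dnmt1, Dnmt3b, Lsamp's libraries and the sets defined by ExE were picked after their values were seen. Alternatives were the scale, the eBayes settings, centring, quantiles, length weights, missing values, the replicate block and leaving out each library. Other steps ran in Python 3.11.15 (pandas 2.3.3, numpy 2.4.6), with the permutations enumerated in full.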

Additional observations from a re-analysis of the deposited data

How the results depend on the processing

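The mean E6.5 difference kept its direction under every setting run, from 8.77 points to 10.5 for the median over windows, 10.8 with windows weighted by length and 8.82 with at least 2 libraries a cross, and from 6.28 to 10.96 points when each replicate was left out. The contrast of long and short windows ranged from 10.2 to 18.5 points in the same omissions. The E7.5 mean difference ranged from 0.407 to 3.12 points. The region counts moved most. From 9428 called at E6.5 they went to 16675 on the logit scale, 14717 with trend and robust eBayes, 0 with library means subtracted and 0 after quantile normalization, and from 0 to 29961 when each replicate was left out, where fewer samples were also fitted. At E7.5 the counts were 6 regions and 9 windows with trend and robust eBayes, 1 region with library means subtracted and 0 to 7 regions without each replicate. The interaction with stage ranged from 0 to 6331 regions without each replicate. Of 14 gene lists, 12 had a median above 0, and 5 did relative to the library means, which by construction are the 5 with a median above 8.77 points.

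The replicate numbers did not pair the samples: deviations of same-numbered libraries correlated at 0.0268 over windows at E6.5 and at -0.0366 at E7.5. With the replicate block over the shared numbers 1 and 3, 26569 E6.5 regions and 0 windows were called, and the mean difference was 11.2 points. At E7.5 the replicate block called 1 region and gave 1.76 points. Over regions the correlation was 0.0861 at E6.5 and -0.102 at E7.5, and at E7.5 a block with crossed numbers called 15 regions. The regions at E6.5 were a listed alternative to single windows. Their other settings and omissions, the regions at E7.5, the stage and tissue interactions over regions, the crossed block, the sets defined by ExE and the values without B6/CAST replicate 1 for annotation, bins and ExE were added after seeing the data.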
